A study of Mus musculus with 8 samples.

Results

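The genes examined here carry iron into a cell, move it into mitochondria, store it, or recover it from haem and release it. They are Tfrc, Tfr2, Steap3 and Slc11a2 for uptake, Slc25a37 and Slc25a38 for mitochondrial import, Fth1 and Ftl1 for storage, and Slc40a1 and Hmox1 for recycling. All probe sets annotated to these 10 genes were taken, which gave 26 of the 45101 probe sets on the array. Of the 26, 19 were annotated to 1 gene, 4 were joint probe sets shared with another gene, and 3 were control probe sets of Tfrc. Tests covered the 20 non-control probe sets whose log2 intensity reached 5 or more on any 4 of the 8 arrays.

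RNA came from whole spleens of 8-week-old Nix-null mice (Nix-/-, called Nix_KO, 4 arrays) and of wild-type control mice of the same age (WT, 4 arrays), with no treatment and with 1 unpooled RNA extract per array. Nix is the protein of Bnip3l, a mitochondrial receptor through which maturing red cells remove their mitochondria. The labels give no promoter, Cre or tissue restriction for the null allele, and strain and sex were not given in the sources used here. Arrays are named by genotype and title number: Nix_KO 10, 2, 3 and 6, and WT 3, 4, 5 and 6.

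Transferrin-bound iron enters erythroid precursors through the transferrin receptor Tfrc, is reduced in the endosome by Steap3, leaves the endosome through the metal transporter Slc11a2 (DMT1), and is carried into mitochondria by Slc25a37 (mitoferrin 1) for haem synthesis. Spleen macrophages take the opposite side of the cycle: they engulf old red cells, open the haem ring with the haem oxygenase Hmox1, hold the iron in ferritin (Fth1 and Ftl1) and release it through ferroportin, Slc40a1. The mouse spleen contains both kinds of cell, since its red pulp forms red cells as well as clearing them. Several of these mRNAs, among them Tfrc, Fth1, Ftl1 and Slc40a1, are also controlled after transcription through iron-responsive elements, so mRNA level and protein level need not move together.

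Promoter sequence from RefSeq (mouse build GRCm38.p6) was held for 6 of the 10 genes, in 13 windows of 250 bases directly upstream of annotated starts. The windows were searched on both strands for a GATA motif (AGATAA or TGATAA), bound by the erythroid factor Gata1, for the core ACGTG of hypoxia elements, and for the core TGANNNNGC of antioxidant elements. Of 32851 mouse windows of this length, 16.6% held a GATA motif, 16.6% the hypoxia core and 35.2% the antioxidant core. Of the 13 windows of the iron genes, 2 held a GATA motif (Tfr2 and Steap3), 3 the hypoxia core (Tfrc and 2 of Tfr2) and 2 the antioxidant core (Steap3 and Slc25a38), while the 3 windows of the ferritin genes held none. A window each of 3 genes that were higher in Nix_KO spleens and of Ftl1, which was not past the threshold, are shown, because they set the uptake and import genes beside a storage gene. The Tfrc window shown (chr16:32608646-32608895, plus strand) held none of the motifs, and the other Tfrc window, not shown, held the hypoxia core. The Steap3 window shown (chr1:120271081-120271330, minus strand) held a GATA motif that starts 45 bases upstream of the start, read here on the other strand. The other Steap3 windows, not shown, held no GATA motif. The Slc25a38 window (chr9:120110132-120110381, plus strand) held an antioxidant core 55 bases upstream, also on the other strand. The Ftl1 window (chr7:45459887-45460136, minus strand) held none. Capitals mark the matches, which are runs of letters and not measured binding.
Tfrc: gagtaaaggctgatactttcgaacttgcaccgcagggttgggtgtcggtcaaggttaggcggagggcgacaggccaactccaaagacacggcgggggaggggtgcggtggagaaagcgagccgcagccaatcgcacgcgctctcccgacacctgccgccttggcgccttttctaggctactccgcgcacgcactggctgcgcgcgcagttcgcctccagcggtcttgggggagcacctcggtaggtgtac
Steap3: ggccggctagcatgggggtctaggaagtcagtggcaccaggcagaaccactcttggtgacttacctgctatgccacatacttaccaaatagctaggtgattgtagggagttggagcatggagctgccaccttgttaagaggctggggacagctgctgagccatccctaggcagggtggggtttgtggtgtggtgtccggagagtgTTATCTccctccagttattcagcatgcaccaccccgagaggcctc
Slc25a38: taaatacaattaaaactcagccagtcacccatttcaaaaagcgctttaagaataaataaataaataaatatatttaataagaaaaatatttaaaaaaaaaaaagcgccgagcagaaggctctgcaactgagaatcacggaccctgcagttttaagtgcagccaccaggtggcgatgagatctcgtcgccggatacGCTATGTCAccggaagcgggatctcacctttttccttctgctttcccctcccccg
Ftl1: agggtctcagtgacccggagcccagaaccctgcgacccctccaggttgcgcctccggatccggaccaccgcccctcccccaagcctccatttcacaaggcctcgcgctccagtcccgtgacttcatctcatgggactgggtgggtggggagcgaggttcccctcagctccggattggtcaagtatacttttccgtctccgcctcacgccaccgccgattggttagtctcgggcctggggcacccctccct

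The arrays differed in markers of several tissues and cell types, within as well as between the genotypes. Markers of exocrine pancreas, an organ that lies against the spleen, had a mean log2 intensity of 12.90 in Nix_KO 3, against 5.22 to 6.08 in the other 3 Nix_KO arrays. The WT arrays ranged widely, with 11.87 for WT 3, 9.82 for WT 5, 7.26 for WT 4 and 5.80 for WT 6. The 3 arrays Nix_KO 3, WT 3 and WT 5 therefore stand apart, and counts are also given without them. Of 12 tested markers of erythroid precursors, 12 were higher in Nix_KO spleens, with array means from 12.20 to 12.69 on the log2 scale, against 9.07 to 11.28 in WT arrays. Their summed intensity was 102652 to 131307 in Nix_KO and 20664 to 56596 in WT. Neutrophil markers were higher in 10 of 10, B cell markers lower in 7 of 7 and T cell markers lower in 6 of 8. Of 14 tested macrophage markers 0 were higher and 3 lower (Csf1r, C1qa and Timd4), a share near that of all 11023 genes, of which 13.1% were higher and 21.3% lower, with array means from 9.92 to 10.88 in Nix_KO and 10.57 to 11.04 in WT. Their summed intensity was 31378 to 48705 in Nix_KO and 50065 to 57752 in WT, and Siglec1 was too dim to test. In RNA of whole spleens, more cells of a type and more RNA per cell cannot be told apart. The 3 Bnip3l probe sets are shared with the pseudogene Bnip3l-ps and did not pass the threshold (log2 differences of 0.43, -0.50 and 0.58; limma adjusted p = 0.158, 0.164 and 0.117), so they do not check the labels.

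Iron uptake and mitochondrial import genes were higher in Nix_KO spleens, while no storage or recycling gene passed the threshold. Of the 18 probe sets of the 6 uptake and import genes 12 were tested, and 10 of these had all 8 arrays at the level for testing. Those 10 were higher and 0 lower at a limma adjusted p under 0.05, where 12.5% of all 22347 tested probe sets were higher and 17.6% lower. The other 2, the dimmest tested probe sets of Steap3 and Slc11a2, passed the filter mostly or wholly through the Nix_KO arrays, so their calls are given as values and not as support. Of the 8 tested probe sets of the 4 storage and recycling genes, 0 were called in either direction. The log2 difference, Nix_KO minus WT, ran from 1.02 to 3.26 over the 10 uptake and import probe sets with all arrays at the level. It was 1.36 and 0.67 on the 2 set aside. Over the storage and recycling probe sets its median was 0.23 (-0.13 to 0.45), beside -0.12 over all tested probe sets. Groups did not overlap for the 10 uptake and import probe sets with all arrays at the level and for 1 of the 8 storage and recycling probe sets, against 15.0% of all tested probe sets that lay higher in Nix_KO without overlap. Without Nix_KO 3, WT 3 and WT 5, 3 of the 10 were past the threshold, 1 of Tfrc and 2 of Tfr2. The 10 differences stayed positive. In that fit, of 3 Nix_KO and 2 WT arrays, 690 of 22347 probe sets passed in all, against 6711 in the fit of 8 arrays.

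**Figure D1:**
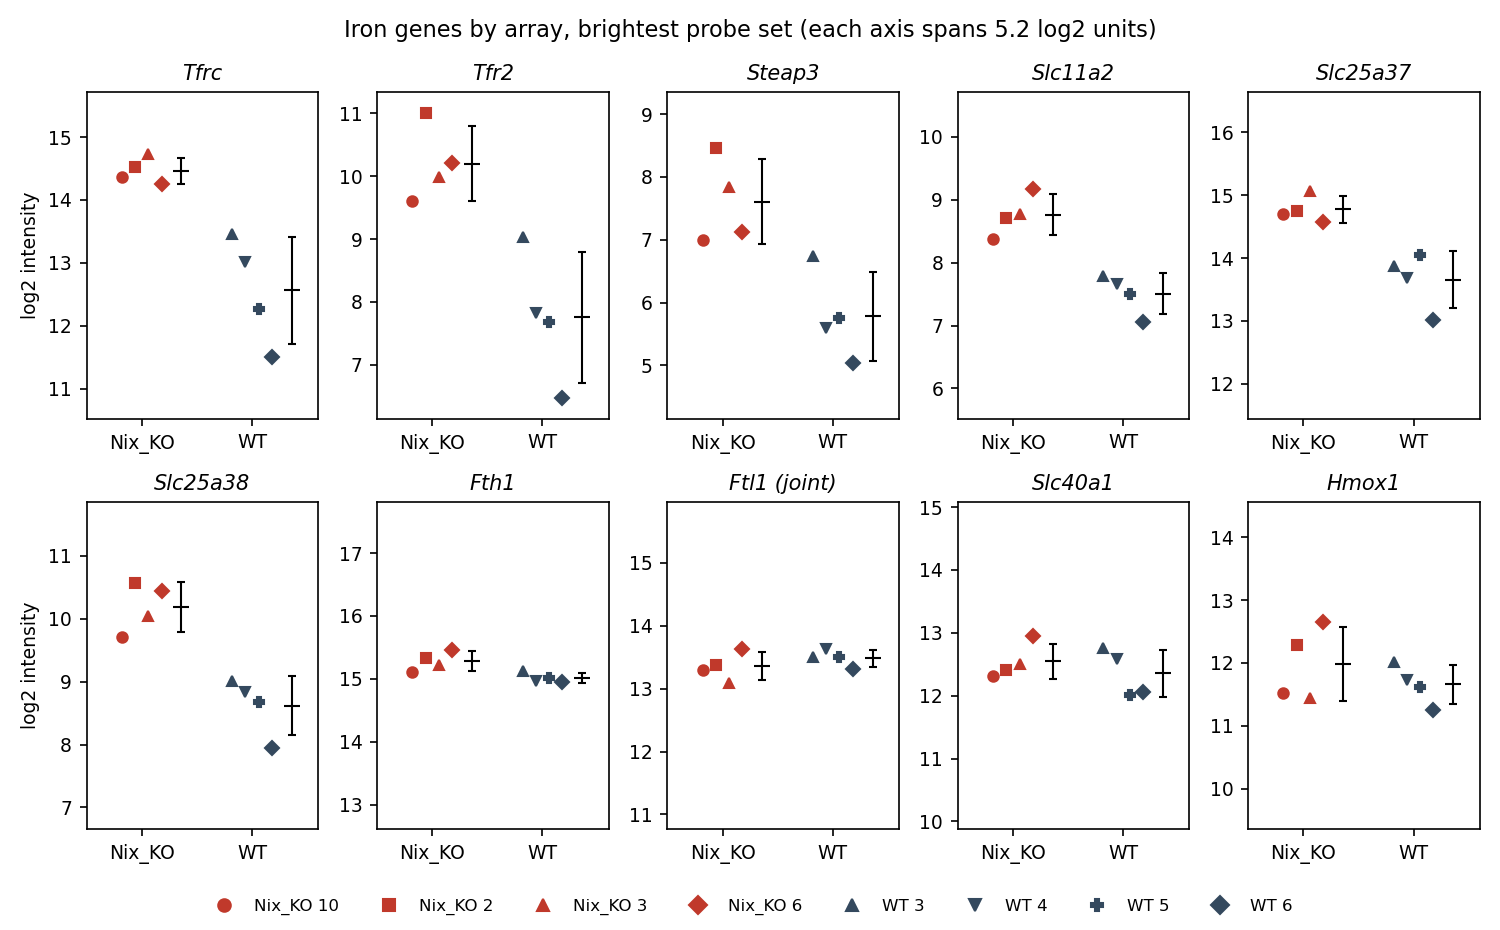
Log2 intensity of the brightest probe set of each gene in the 8 arrays, Nix_KO left of WT, with a point per array and the mean and SD beside each group. The 6 uptake and import genes do not overlap between genotypes, whereas the groups overlap for Fth1, the Ftl1 probe set shown, Slc40a1 and Hmox1.

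Tfrc, the receptor that brings transferrin iron into the cell, had log2 intensities of 14.37, 14.52, 14.73 and 14.25 in Nix_KO spleens (10, 2, 3 and 6) and of 13.45, 13.02, 12.27 and 11.51 in WT spleens (3, 4, 5 and 6) on its brightest probe set. The 4 Nix_KO arrays lay within a narrow band above every WT array, and the WT arrays spread widely, with WT 3 nearest to the Nix_KO group and WT 6 farthest. The difference was 1.90 ± 0.37 (SE, n = 4 per genotype), or 3.74-fold (limma adjusted p = 0.0061). The second tested Tfrc probe set had 8.52, 9.46, 9.66 and 10.09 in Nix_KO spleens and 7.57, 6.24, 5.49 and 5.38 in WT spleens. Its difference of 3.26 ± 0.49, or 9.60-fold (limma adjusted p = 0.0032), had the highest fold among the 20 tested probe sets. The 2 Tfrc probe sets gave folds of different size, so the size of the rise depended on the probe set.

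Another Tfrc probe set was below the level for testing, with 4.90, 4.76, 5.55 and 7.20 in Nix_KO spleens and 2.86 to 3.79 in WT spleens. When no filter was applied it was higher in Nix_KO (limma adjusted p = 0.0210). It reached 5 in 2 of 4 Nix_KO arrays and 0 of 4 WT arrays. Its difference was 2.40, and 0.69 with values under 5 raised to 5, so this call is not used as support. The 3 control probe sets target the 3', middle and 5' portions of the Tfrc mRNA and were not tested. At the 3' end they read 8.12 to 9.42 in Nix_KO against 4.87 to 7.15 in WT, in the middle 5.43 to 6.50 against 4.13 to 4.33, and at the 5' end 4.48 to 5.73 against 2.91 to 3.89. The genotypes did not overlap at any of the 3 positions, where 15.0% of all tested probe sets lay higher in Nix_KO without overlap. In the middle and at the 5' end 0 of 4 WT arrays reached 5, and at the 5' end 1 of 4 Nix_KO arrays did. With lower values raised to 5, the differences were 2.81 at the 3' end, 0.89 in the middle and 0.18 at the 5' end. With most 5' values under 5, the 3' minus 5' difference of Tfrc itself also depends on its 3' level and is no measure of RNA integrity alone. It was 3.60 to 4.31 in Nix_KO and 1.69 to 3.27 in WT. For the control mRNAs Gapdh and Actb, a rough sign of RNA integrity and labelling, it was 0.94 to 1.76 and 0.84 to 1.74 in Nix_KO, against 0.81 to 1.22 and 0.69 to 0.98 in WT. The part of RNA quality in the Tfrc result was not tested.

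Tfr2, a second transferrin receptor that senses iron load in liver and in erythroid precursors, had 9.60, 11.0, 9.98 and 10.21 in Nix_KO spleens and 9.03, 7.83, 7.68 and 6.47 in WT spleens on its brightest probe set. Nix_KO 2 was the highest array and WT 6 the lowest, and the groups did not overlap. The difference was 2.45 ± 0.49, or 5.46-fold (limma adjusted p = 0.0068). The other Tfr2 probe set had a difference of 2.08 ± 0.47 (limma adjusted p = 0.0109), with 8.16 to 9.51 in Nix_KO and 5.62 to 8.00 in WT, and its lowest Nix_KO array lay 0.15 above its highest WT array.

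Steap3, the endosomal reductase that turns ferric into ferrous iron in erythroid precursors, had 7.0, 8.45, 7.85 and 7.13 in Nix_KO spleens and 6.74, 5.60, 5.76 and 5.05 in WT spleens. The groups did not overlap, with WT 3 just under Nix_KO 10. The difference was 1.82 ± 0.41, or 3.53-fold (limma adjusted p = 0.0102). The second tested Steap3 probe set had 4.85, 5.94, 5.57 and 6.31 in Nix_KO spleens and 5.25, 4.32, 4.29 and 3.37 in WT spleens. Its difference of 1.36 ± 0.41 (limma adjusted p = 0.033) is the one uptake result whose groups overlap, since Nix_KO 10 lay below WT 3. This call was lost without Nix_KO 2, 3 or 6 and without WT 4, 5 or 6, with adjusted p from 0.0613 to 0.0837, and also with array weights (0.0648). With values under 5 raised to 5, the difference was 0.64 and did not pass (limma adjusted p = 0.0826). The remaining Steap3 probe set was below the level for testing in the 8 arrays, with 3.19, 3.32, 3.20 and 4.44 in Nix_KO spleens and 3.07 to 3.19 in WT spleens.

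Slc11a2, which moves ferrous iron out of the endosome, was higher on the 3 probe sets that every array measured above the level for testing. Its brightest probe set had 8.38, 8.71, 8.78 and 9.18 in Nix_KO spleens and 7.79, 7.67, 7.51 and 7.05 in WT spleens, a difference of 1.26 ± 0.22, or 2.39-fold (limma adjusted p = 0.0043). Both groups were tight, with an SD of 0.33 in Nix_KO and 0.32 in WT, and did not overlap. The next 2 differed by 1.29 ± 0.27 and 1.02 ± 0.21 (limma adjusted p = 0.0075 and 0.0068). On the dimmest of its 4 probe sets, WT arrays read 4.74 to 4.99, under the level for testing, and Nix_KO arrays 5.03 to 6.01, so it entered the test through the Nix_KO arrays alone. With the WT arrays set at that level its difference was 0.52 ± 0.20, or 1.43-fold, and did not pass (limma adjusted p = 0.0734). Its call (limma adjusted p = 0.0349) was lost when Nix_KO 2 or 3 or any 1 WT array was left out. The adjusted p was then 0.0518 to 0.0937, and it was 0.0548 when no filter was applied.

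Slc25a37, the carrier that imports iron into the mitochondria of erythroid precursors, had 14.70, 14.74, 15.07 and 14.58 in Nix_KO spleens and 13.87, 13.69, 14.05 and 13.01 in WT spleens. The groups were separate, and WT 6 was the lowest array. The difference was 1.12 ± 0.23, or 2.17-fold (limma adjusted p = 0.0078). A second probe set, joint with the predicted gene Gm16867, was below the level for testing and lay the other way, with 2.40 to 2.84 in Nix_KO spleens and 4.66, 4.42, 6.11 and 4.11 in WT spleens. Without a filter it was lower in Nix_KO, with a limma adjusted p of 0.0114. Which of its 2 genes this probe set reads cannot be told from the annotation.

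Slc25a38, a mitochondrial glycine carrier needed for the first step of haem synthesis and mutated in a human congenital sideroblastic anaemia, had 9.71, 10.57, 10.04 and 10.45 in Nix_KO spleens and 9.01, 8.84, 8.68 and 7.94 in WT spleens. Each Nix_KO array lay above each WT array. The difference was 1.58 ± 0.27, or 2.98-fold (limma adjusted p = 0.0042). It is grouped with mitochondrial import here although its cargo is not iron.

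**Figure D2:**
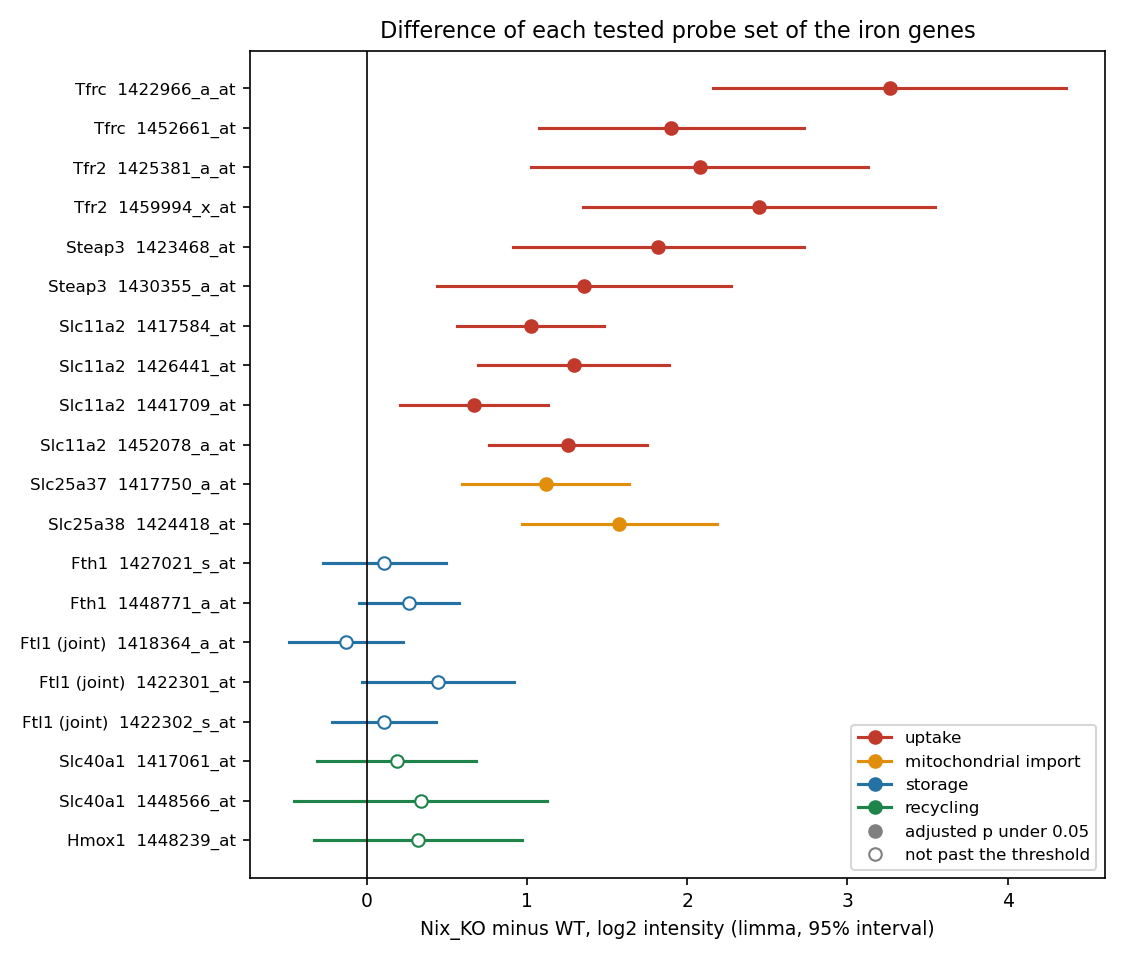
Difference in log2 intensity, Nix_KO minus WT, of the 20 tested probe sets with limma's 95% interval, coloured by role and filled where the adjusted p was under 0.05. The 12 intervals of uptake and import probe sets lie to the right of 0, and the 8 of storage and recycling span 0. Of the 12, the dimmest of Steap3 and of Slc11a2 passed the filter mostly or wholly through the Nix_KO arrays.

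Ferritin mRNAs showed no call. Fth1, the heavy ferritin chain that oxidises iron for storage, had 15.11, 15.34, 15.22 and 15.47 in Nix_KO spleens and 15.13, 14.97, 15.02 and 14.95 in WT spleens on its brightest probe set. Nix_KO 10 lay just below WT 3, and the other 3 Nix_KO arrays lay above the WT group. The difference was 0.26 ± 0.14, with a 95% interval from -0.05 to 0.58 (limma adjusted p = 0.176). This probe set was near the top of the deposited range, whose highest intensity was 83020, and the effect of saturation was not tested. The second Fth1 probe set differed by 0.11 ± 0.17, with an interval from -0.28 to 0.49 (limma adjusted p = 0.654).

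Ftl1, the light ferritin chain, was read by 3 probe sets, each of them shared with the pseudogene Ftl1-ps2, so no value belongs to Ftl1 alone. The brightest had 13.30, 13.38, 13.10 and 13.63 in Nix_KO spleens and 13.50, 13.63, 13.51 and 13.31 in WT spleens, with overlapping groups and a difference of -0.13 ± 0.16 (interval -0.48 to 0.23, limma adjusted p = 0.561). The second had a difference of 0.11 ± 0.14 (interval -0.21 to 0.43, limma adjusted p = 0.592). The third, a dimmer one, had 9.10, 9.91, 9.06 and 9.22 in Nix_KO spleens and 8.84, 8.98, 9.05 and 8.64 in WT spleens. Its groups did not overlap, by a margin of 0.01, and its difference of 0.45 ± 0.21 did not pass (limma adjusted p = 0.137).

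Slc40a1, the only known exporter of iron from mammalian cells, had 12.32, 12.41, 12.50 and 12.95 in Nix_KO spleens and 12.76, 12.59, 12.01 and 12.07 in WT spleens on its brightest probe set. WT 3 and WT 4 lay inside the Nix_KO range and WT 5 and WT 6 below it. The difference was 0.19 ± 0.22, with an interval from -0.31 to 0.69 (limma adjusted p = 0.541). The second probe set differed by 0.34 ± 0.35 (interval -0.45 to 1.12, limma adjusted p = 0.491), and Nix_KO 6 was the highest of the 8 arrays on both.

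Hmox1, the inducible haem oxygenase that frees iron from haem, had 11.53, 12.28, 11.45 and 12.65 in Nix_KO spleens and 12.01, 11.73, 11.62 and 11.26 in WT spleens. Nix_KO 2 and 6 lay above the WT group, and Nix_KO 10 and 3 lay inside it. The difference was 0.32 ± 0.29, with an interval from -0.33 to 0.97 (limma adjusted p = 0.424). The intervals of both recycling genes span 0, and their upper ends, 0.97 for Hmox1 and 1.12 for the second Slc40a1 probe set, are about as high as the difference called for Slc25a37.

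The iron uptake side was then set against recycling within each array, as the log2 intensity of an uptake or import gene minus that of a recycling gene. Tfrc minus Slc40a1 was 2.05, 2.11, 2.22 and 1.30 in Nix_KO spleens and 0.69, 0.43, 0.26 and -0.56 in WT spleens, with no overlap. The genotypes differed by 1.71 in this quantity (1.92 ± 0.42 in Nix_KO, 0.21 ± 0.54 in WT; SD, n = 4 each; exact two-sided permutation p = 0.0286, adjusted over 4 pairs 0.0571). Tfrc minus Hmox1 also separated the genotypes, at 2.49 ± 0.73 in Nix_KO and 0.91 ± 0.55 in WT, a difference of 1.58 (exact permutation p = 0.0286, adjusted 0.0571). Here 0.0286 is the smallest p that 4 arrays against 4 can give, and the pairs share genes and were chosen with earlier results known.

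The differences were smaller in size for Slc25a37, and whether they differed from those of Tfrc was not tested. Slc25a37 minus Slc40a1 was 2.38, 2.33, 2.57 and 1.63 in Nix_KO spleens and 1.11, 1.10, 2.04 and 0.94 in WT spleens, and Nix_KO 6 lay below WT 5. The difference was 0.93 (exact permutation p = 0.0571, adjusted 0.0762). Slc25a37 minus Hmox1 differed by 0.80, at 2.80 ± 0.75 in Nix_KO and 2.00 ± 0.29 in WT, again with overlap (exact permutation p = 0.0857, adjusted 0.0857). None of the 4 pairs passed 0.05 after adjustment, so the direct contrast is reported as values: the differences were positive in all 4 pairs.

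Each gene was also set beside markers of the cells it is known from, again as a within-array log2 difference and with no test. Tfrc minus the mean of the 12 erythroid markers was 2.16, 2.12, 2.03 and 1.61 in Nix_KO spleens and 2.17, 2.28, 1.92 and 2.44 in WT spleens, with means of 1.98 ± 0.25 in Nix_KO and 2.20 ± 0.22 in WT (SD, n = 4 each). The groups overlapped. In WT spleens the erythroid mean was 11.28, 10.73, 10.35 and 9.07 in arrays 3, 4, 5 and 6, which is also the order of their Tfrc levels. The order is not particular to these markers: the neutrophil mean was 10.01, 9.46, 7.98 and 7.55 in the same arrays. What set the order was not tested. Slc25a37 minus the erythroid mean was 2.50, 2.34, 2.38 and 1.94 in Nix_KO and 2.59, 2.96, 3.69 and 3.94 in WT. Here the groups did not overlap and Slc25a37 lay 1.0 lower in Nix_KO spleens relative to the markers, as it differed less between the genotypes than their mean did. The brightest marker, Slc4a1 (mean 15.56 in Nix_KO), differed by 1.13 and the others by 1.95 to 2.37, beside 1.12 for Slc25a37 (mean 14.77). Slc4a1 and Slc25a37 are both bright, and the effect of saturation was not tested.

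Slc40a1 minus the mean of the 14 macrophage markers was 2.13, 2.16, 2.58 and 2.06 in Nix_KO spleens and 1.94, 1.55, 1.43 and 1.38 in WT spleens, and did not overlap. Hmox1 minus that mean was 1.33, 2.03, 1.53 and 1.77 in Nix_KO spleens and 1.19, 0.70, 1.05 and 0.57 in WT spleens, again without overlap. Relative to the mean of the macrophage markers, Slc40a1 was 0.66 and Hmox1 0.79 higher in Nix_KO spleens on the log2 scale. The size depends on the markers averaged: single markers differed from -1.25 (Timd4) to 0.10 (Mrc1), and their mean by -0.47. Slc40a1 and Hmox1 themselves differed by 0.19 and 0.32. Both genes are also expressed by erythroid cells, and which cells carried their mRNA was not tested.

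**Figure D3:**
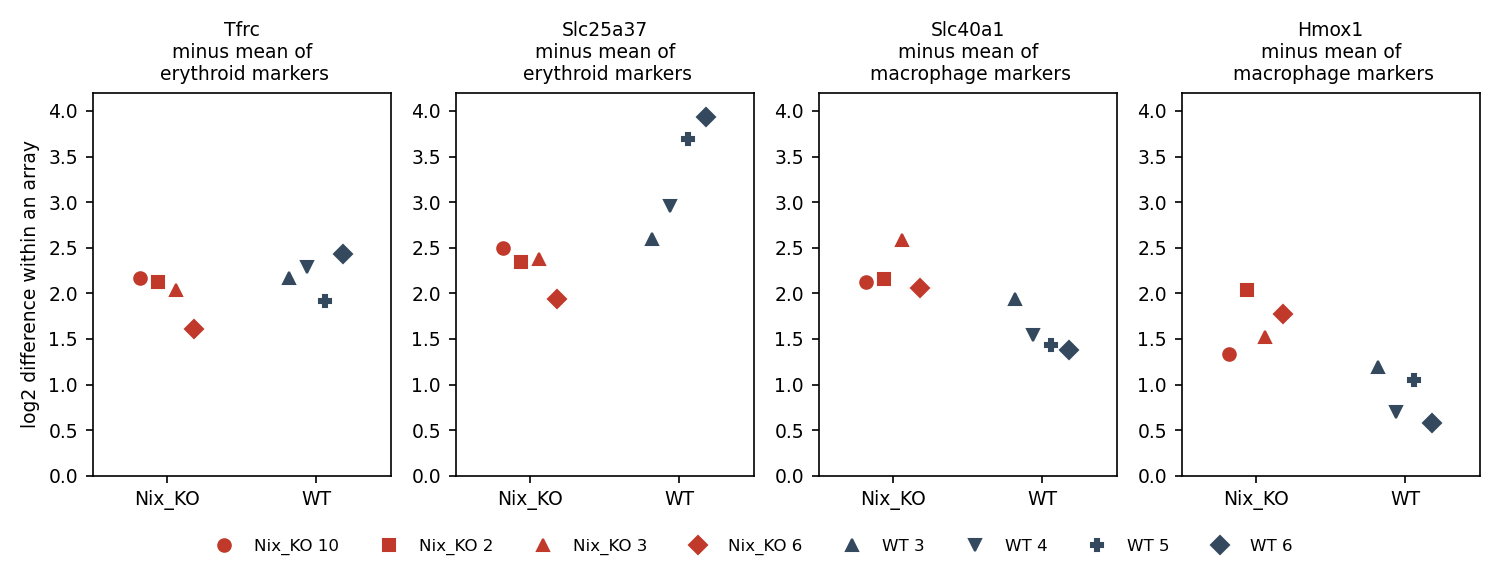
Log2 difference within each array between a gene and the mean of a marker list, Nix_KO left of WT, a point per array. Tfrc overlaps between genotypes, Slc25a37 is lower in Nix_KO, and Slc40a1 and Hmox1 are higher in Nix_KO relative to their marker list.

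Other genes of the same pathways were counted from 4 lists, each gene by its brightest single-gene probe set. Over all 11023 genes so measured, with the shares of higher and lower calls given above, the median log2 difference was -0.15. Of 17 further genes of iron uptake and endosomal traffic 12 were tested, and 3 were higher, 1 lower and 8 not called, with a median of -0.04. Slc39a8, a metal importer that also carries ferrous iron, had 8.45, 9.10, 9.02 and 8.95 in Nix_KO spleens and 7.99, 6.94, 6.22 and 6.71 in WT spleens, a difference of 1.92 ± 0.34 (limma adjusted p = 0.0045). Ncoa4, the receptor that delivers ferritin for breakdown and iron release, was 1.32 ± 0.18 higher (0.0025), on both of its probe sets. Exoc6, an exocyst subunit of transferrin recycling whose loss causes the anaemia of the hbd mouse, was 0.97 ± 0.17 higher (0.0043), though 2 of its 3 probe sets did not pass. Cybrd1, a ferric reductase known from the gut, had 5.01, 3.55, 3.98 and 4.44 in Nix_KO spleens and 5.01, 6.32, 5.64 and 5.77 in WT spleens, with groups that touch. It entered the test mainly through the WT arrays, since 1 of 4 Nix_KO arrays reached the level. Its fitted difference of -1.44 ± 0.35 (0.0142) depends on values under that level: with these raised to 5 it was -0.68 ± 0.24 and did not pass (0.0574).

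The list of mitochondrial iron handling and iron-sulphur cluster assembly had the highest share of rises of the 4 lists. Of 17 tested genes 11 were higher, 1 lower and 5 not called, with a median of 0.75. Abcb10, a transporter of the inner membrane known to stabilise mitoferrin 1, was 2.17 ± 0.39 higher (limma adjusted p = 0.0047) and passed on all 3 of its probe sets. Isca1 and Iba57, which act late in cluster assembly, were 1.32 ± 0.22 (0.0039) and 1.27 ± 0.24 (0.0053) higher. Glrx5, the glutaredoxin that passes clusters on in erythroid mitochondria, was 1.18 ± 0.23 higher (0.0060). The other 7 were Tmem14c, Isca2, Bola3, Lyrm4, Hscb, Hspa9 and Iscu, with differences from 1.29 to 0.56. The one lower gene was Slc25a28, mitoferrin 2, the carrier that most other tissues use in place of Slc25a37, at -0.59 ± 0.13 (0.0107). The 2 mitoferrins were therefore called in opposite directions. Without Nix_KO 3, WT 3 and WT 5, 2 genes of this list stayed past the threshold, Isca1 and Glrx5. Single left-out WT arrays ended the calls of Iscu (WT 4 or 6), Lyrm4 (WT 5 or 6) and Hscb (WT 4, 5 or 6), and 6 of the 8 single arrays, left out, that of Hspa9.

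Of 12 tested genes of iron sensing 0 were higher and 9 not called, with a median of -0.36. The 3 lower genes were a share near the 21.3% lower over all 11023 genes. The 3 were Neo1, a co-receptor of hepcidin signalling (-0.89 ± 0.20, limma adjusted p = 0.0097), Smad4, its signal transducer (-0.89 ± 0.24, 0.0207), and Epas1, the hypoxia factor HIF-2 alpha (-1.07 ± 0.29, 0.0218). The calls of Smad4 and Epas1 were lost without WT 4, 5 or 6. The iron regulatory proteins that bind the Tfrc and ferritin mRNAs, Aco1 and Ireb2, did not pass, at -0.10 ± 0.15 and 0.34 ± 0.21 (limma adjusted p = 0.638 and 0.245).

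Of 11 tested genes of haem and iron recycling and export, 3 were higher, 1 lower and 7 not called, with a median of -0.34. Abcg2, a porphyrin exporter of erythroid and stem cells, had 11.70, 11.77, 12.28 and 12.43 in Nix_KO spleens and 10.36, 9.81, 9.17 and 8.78 in WT spleens, a difference of 2.51 ± 0.33 (limma adjusted p = 0.0025). Blvrb, a biliverdin reductase abundant in red cells, was 1.13 ± 0.26 higher (0.0122). Slc48a1, which carries haem out of the lysosome in macrophages, was 1.02 ± 0.21 higher (0.0078). Hmox2, the constitutive haem oxygenase, was -0.57 ± 0.18 (0.0422), a call lost in 7 of the 8 leave-one-out fits, with Nix_KO 6 the exception. The macrophage haemoglobin receptor Cd163 and the phagosomal metal transporter Slc11a1 did not pass, at -0.87 ± 0.42 and -0.65 ± 0.27 (limma adjusted p = 0.138 and 0.0944). Of the 3 higher genes, Abcg2 stayed past the threshold without Nix_KO 3, WT 3 and WT 5.

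**Figure D4:**
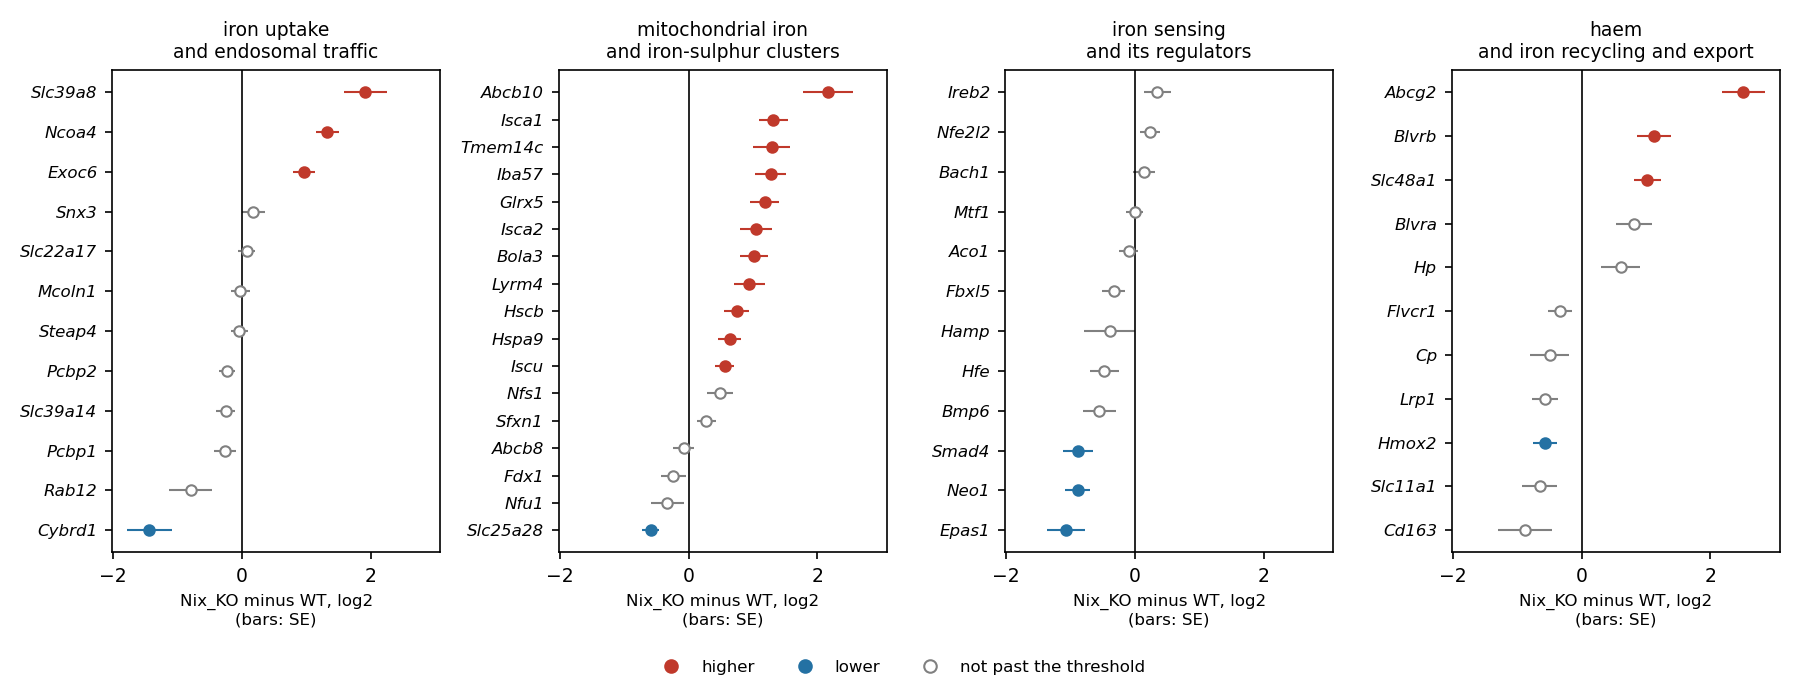
Difference in log2 intensity, Nix_KO minus WT, of each tested gene in the 4 pathway lists, with the SE as a bar. Red points passed as higher, blue as lower and open points did not pass: 3, 11, 0 and 3 genes were higher and 1, 1, 3 and 1 lower from left to right.

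Slc25a37 lies on chromosome 14, as does Bnip3l, and 45 annotated genes, 14 of them protein coding, lie between the pair. Of these 45, 7 were tested, of which 2 were higher (Cdca2 by 1.45 and Kctd9 by 1.22), 2 lower (Adamdec1, and Dock5 by -0.63) and 3 not called, with a median of 0.02. With so few genes these counts are not set apart from the 13.1% higher and 21.3% lower over all genes. The call of Dock5 was lost without WT 4 or WT 6. Adamdec1, a secreted metalloprotease known from macrophages, reached the level for testing in 0 of 4 Nix_KO arrays and 4 of 4 WT arrays. With low values raised to that level its difference was -5.04, a bound on its size (limma adjusted p = 1.81e-06). The part of its position near the targeted gene in its own difference was not tested.

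Across the 8 arrays, after the genotype means were removed, the genes most like Tfrc were Rrm2, Rhag, Hemgn, Mtfr1 and Mfsd2b (Pearson r from 0.989 to 0.971). Those most like Slc25a37 were Creg1, Rec114, Rangap1, Loxl3 and Slc4a1 (0.961 to 0.943). Rhag, Hemgn and Slc4a1 are also on the erythroid marker list. Those most like Slc40a1 were Fahd1, Slc43a3, Kntc1, Gypc and Pcna (0.985 to 0.959), and those most like Hmox1 were Dedd2, Copz1, Pik3r2, Spryd4 and Fpgs (0.984 to 0.970). None of these 10 is on the macrophage marker list. With 14 tested macrophage markers among 11023 genes, this absence cannot tell which cells carried the mRNA. Among the iron genes, Hmox1 and Fth1 varied together (r = 0.913), Hmox1 and Slc40a1 less so (0.691), and Tfrc and Slc25a37 had r = 0.683. Pairs of a recycling gene with an uptake or import gene ran from 0.058 (Hmox1 and Slc25a37) to 0.842 (Slc40a1 and Slc11a2). Some of these were thus higher than pairs within a side, such as Hmox1 and Slc25a38 (0.826). These are descriptions over 8 arrays that share RNA quality and tissue make-up, taken as the highest of 11023 genes.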

How the data were processed

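The authors deposited a table of linear intensities, a value for every probe set on every array. These intensities were made with GCRMA per the submitters' processing notes, a method that removes background by a model of probe sequence, puts arrays on a common scale and combines probes into probe sets; its version, and the step that made the values linear, are not given in the sources used here. GCRMA pulls dim probe sets toward a common low level, so folds of dim probe sets depend on it. Array median intensities ran from 28.85 to 30.61, and 48.6% to 49.3% of probe sets per array reached a log2 intensity of 5. The number of arrays, 4 per genotype, limits the precision.

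Intensities were log2-transformed. After removal of 64 control probe sets, 22347 of 45037 probe sets, those with log2 intensity of at least 5 in at least 4 of 8 arrays, were tested with limma 3.58.1 (lmFit and eBayes in R 4.3.3), two-sided, and p-values were adjusted by Benjamini-Hochberg over these probe sets and a threshold of 0.05. Each adjusted p of a gene or probe set is from this fit, unless another filter, floor, weighting or set of arrays is named with it. The fit was also run on simulated arrays with independent noise, which cannot give its error rate on arrays that share tissue make-up and RNA quality. Genes were named from the platform annotation, in which 34945 probe sets had 1 symbol, 932 several and 9160 none. A listed gene is represented by the brightest probe set annotated to it alone, by the mean of the 8 arrays. Within-array pair differences were tested by exact permutation with scipy 1.17.1 in Python 3.11.15, and figures drawn with matplotlib 3.10.9. Samples are separate RNA extracts of each genotype per the labels, and p-values measure the spread between them.

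The members, the pathway and marker lists, and the tests were chosen with earlier results of these data known. Named genes are all probe sets of the 10 members, Bnip3l, up to 4 higher and 4 lower genes of each pathway list by smallest adjusted p, the 5 genes most correlated with each of Tfrc, Slc25a37, Slc40a1 and Hmox1, and the cell markers. The further mitochondrial genes past the threshold, Aco1, Ireb2, Cd163, Slc11a1 and the genes between Bnip3l and Slc25a37 were named after their values were seen. Alternatives were other filters, a floor, other scalings, array weights, the title number as a block, and left-out arrays.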

Additional observations from a re-analysis of the deposited data

Results flagged for a closer look

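A probe set of Steap3 too dim to be tested had a log2 intensity of 4.44 in Nix_KO 6, against 3.19 to 3.32 in the other 3 Nix_KO arrays and 3.07 to 3.19 in WT arrays. This array stood far from its group by Dixon's test. Of 52 groups of 4 arrays looked at among the member probe sets, 1 stood out in this way, and chance gives about 1 in 20.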

How the results depend on the processing

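No member result changed direction past the threshold under any alternative, and the 8 storage and recycling probe sets stayed outside the threshold in each of 16 alternatives. Without Nix_KO 3, WT 3 and WT 5, 3 uptake and import probe sets were higher. Over the 10 with all 8 arrays at the level, the limma adjusted p ran from 0.0476 to 0.100. Of all probe sets, 500 were higher and 190 lower. In that fit, which had fewer arrays, 0 genes of the uptake list were lower, 2 of the mitochondrial list higher and 0 lower, 0 of the sensing list lower, and 1 of the recycling list higher and 0 lower; 1 gene between Bnip3l and Slc25a37 was higher and 1 lower. With arrays centred on their medians 0 recycling genes were lower. Leaving out 1 array at a time gave 2096 to 4221 lower probe sets, 1 to 2 lower genes of the uptake list, 7 to 11 higher of the mitochondrial list, 1 to 5 lower of the sensing list and 0 to 3 lower of the recycling list; the fewest calls, 3996, came without WT 6. The title numbers 3 and 6 occur in both genotypes but the labels do not say that they pair animals, and same-numbered arrays had deviations that correlated at 0.252 and 0.147. With the number as a replicate block, which leaves 2 pairs to carry the contrast, 0 uptake and import probe sets and 0 of all probe sets were higher and 1 was lower (4920 at an unadjusted p under 0.05). The values between Bnip3l and Slc25a37 and beside markers under left-out arrays, and those of Cybrd1 and Adamdec1 with low values raised to 5, were added after seeing the data. The list and marker values rest on 1 probe set per gene, and dim probe sets give only bounds.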
